A study of Mus musculus with 12 samples.

Results

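The CD300 genes encode immunoglobulin-like receptors on the surface of myeloid cells, and most of them lie side by side on mouse chromosome 11. Their expression was followed in pulmonary CD11c+ cells of mice that had been given Pneumocystis, a fungus that grows in the lung. The members listed were Cd300a, Cd300e, Cd300lb, Cd300ld and Cd300lf, and a probe set was taken for a member where it carried that gene's symbol and no other. This gave values for 4 of the 5 members through 5 probe sets, among 18193 genes in all. The expression of Cd300e was not analysed here. The members were chosen by their measured log2 ratios in the 4 groups, with earlier results of these arrays in view, so their values, and the calls given with them, are a description, and no p-value is printed for a member.

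The 12 arrays, 1 for each mouse, fall into 4 groups of 3. These are IFNAR-/- mice at day 14, wildtype mice at day 14, IFNAR-/- mice at day 7 and wildtype mice at day 7 after instillation of the fungus into the trachea. IFNAR is the receptor for type I interferons. All 12 mice were infected, so no group gives the level without infection, and the labels give neither the strain, the age nor how the IFNAR allele was made. Cells were taken from digested lungs with beads against CD11c, a surface protein of lung dendritic cells and alveolar macrophages. The labels put their purity above 90% and lymphocytes below 5%. The stated aim was to learn whether type I interferon acts in these cells early on, and whether that shapes inflammation as the fungus starts to be cleared. In such bulk samples fewer cells of a type and less RNA per cell cannot be told apart.

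CD300 receptors work in pairs of opposite sign. Inhibitory members carry tyrosine motifs in their own tail and recruit phosphatases, while activating members have a short tail and signal through adaptor proteins such as DAP12 (Tyrobp) and the Fc receptor gamma chain (Fcer1g). Several members bind lipids, among them phosphatidylserine on dying cells and ceramide, and they are known for tuning the responses of macrophages, dendritic cells, neutrophils and mast cells.

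Every value is the log2 of a ratio between an array's signal and about the median of that probe set over the 12 arrays. A value of 0 is therefore the middle of the 12 arrays. Levels can be compared between arrays, not between genes, and neither a level over background nor the absence of a marker can be read from them. Differences come from 1 limma fit over all genes and are given with their standard error (SE), 3 arrays in each group. A gene is called where its p, adjusted by Benjamini-Hochberg over the 18193 genes, is under 0.05.

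Before the results, 2 arrays must be named: IFNAR-/- day 7 mouse 3 and IFNAR-/- day 14 mouse 2 stood apart from the rest in earlier results of these data. Ifnar1, a subunit of the missing receptor, was not called at either day. Its mean over 2 probe sets differed by -0.19 ± 0.355 at day 14 (IFNAR-/- minus wildtype, limma adjusted p = 0.821) and by -0.98 ± 0.355 at day 7 (limma adjusted p = 0.208). Probe set 1449026_at read -0.64 to 0.004 in IFNAR-/- mice at day 14 and 0.235 to 0.88 in wildtype mice, and -1.41 to -0.39 in IFNAR-/- mice at day 7 and -0.02 to 0.63 in wildtype mice. The ranges of the other probe set overlapped on both days. Where these probe sets lie relative to the altered part of the gene was not checked, so the genotypes rest on the labels.

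The promoters of 3 members are shown, those of Cd300ld and Cd300lf, which were called lower in IFNAR-/- cells on both days, and that of Cd300a, whose genotype difference had opposite signs on the days. The sequences are the 250 bases before each gene's start in RefSeq (GRCm38.p6, 5′ to 3′ on the gene's strand), at chr11:114989887-114990136 on the minus strand for Cd300ld, chr11:115133993-115134242 on the minus strand for Cd300lf and chr11:114889791-114890040 on the plus strand for Cd300a. Capitals mark the only match to the searched motifs.
Cd300ld: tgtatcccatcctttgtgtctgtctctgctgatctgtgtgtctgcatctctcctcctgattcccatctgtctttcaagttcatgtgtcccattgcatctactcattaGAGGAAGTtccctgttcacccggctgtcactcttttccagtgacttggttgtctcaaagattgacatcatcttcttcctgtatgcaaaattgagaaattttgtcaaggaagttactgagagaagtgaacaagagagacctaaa
Cd300lf: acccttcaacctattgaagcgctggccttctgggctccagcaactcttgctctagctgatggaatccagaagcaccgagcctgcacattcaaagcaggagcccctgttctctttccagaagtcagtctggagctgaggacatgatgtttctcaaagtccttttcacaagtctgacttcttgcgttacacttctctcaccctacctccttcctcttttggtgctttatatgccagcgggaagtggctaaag
Cd300a: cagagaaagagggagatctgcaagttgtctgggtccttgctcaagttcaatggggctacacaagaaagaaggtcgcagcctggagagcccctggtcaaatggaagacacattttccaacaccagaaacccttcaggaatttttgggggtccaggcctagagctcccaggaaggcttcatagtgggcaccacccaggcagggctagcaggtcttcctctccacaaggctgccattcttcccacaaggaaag

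3 motifs were searched on both strands. They were the core of interferon-stimulated response elements (GAAA, any 2 bases, GAAA), TTCNNNGAA, the site of STAT dimers, and GAGGAAGT, a site of the myeloid factor PU.1. The first occurs in 3.04% of the 27025 mouse promoters searched over the same length, the second in 7.18% and the third in 2.44%. The Cd300ld promoter holds GAGGAAGT at 143 to 136 bases before the start. Cd300a, Cd300lb and Cd300lf hold none of the 3 in this window, and Cd300e holds 1 STAT-type match (TTCTCTGAA). The windows of Cd300a, Cd300lf and Cd300e lie inside the spans of their genes, so the bases before the outer end of these genes were not searched. A match is only a run of letters, and binding was not measured.

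Cd300ld, an activating receptor that signals through the Fc receptor gamma chain, differed more between the genotypes than any other member. On the log2 ratio scale it read -0.68, -0.66 and -0.83 in the 3 IFNAR-/- mice at day 14, against 0.69, 0.89 and 0.92 in the 3 wildtype mice. At day 7 it read -1.29, -1.83 and -2.04 in IFNAR-/- mice, against 1.13, 0.44 and 0.94 in wildtype mice. All 6 IFNAR-/- arrays lie below 0 and all 6 wildtype arrays above it, and the gap between the genotypes is wider than the spread within any group.

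Cd300ld was thus 2.94-fold lower in IFNAR-/- cells at day 14 (difference -1.56 ± 0.204) and 5.88-fold lower at day 7 (difference -2.56 ± 0.204). Of all genes, 0.896% had a larger difference in either direction at day 14 and 0.192% at day 7. From day 7 to day 14 the gene moved in IFNAR-/- cells and hardly in wildtype cells. It was higher at day 14 than at day 7 by 0.99 ± 0.204 in IFNAR-/- mice, and the same difference was -0.01 ± 0.204 in wildtype mice, where the arrays of the days overlap. The genotype difference at day 14 was 1.00 ± 0.288 above that at day 7, so it was smaller in size at the later day, and this change of the difference was not called.

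The Cd300ld values come from 1 probe set, 1424832_at. The reference table lists Cd300ld2, Cd300ld3, Cd300ld4 and Cd300ld5 beside it on chromosome 11, and none of these has a probe set of its own symbol here. Whether 1424832_at tells Cd300ld from these copies was not tested, so the values may hold signal of more than 1 gene. The difference of Cd300ld ranged from -1.81 to -1.50 at day 14 and from -2.77 to -2.35 at day 7 over 22 alternative fits. It was called in all 22 fits at day 7 and in 21 at day 14. The day 14 call was lost, at a difference of -1.51, when the 5′ over 3′ control signal entered the fit. The higher value at day 14 in IFNAR-/- mice was called in 20 of the 22 fits, with 0.68 under a second quantile normalization and 0.80 without both arrays that stand apart in the fits that lost the call.

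**Figure D1:**
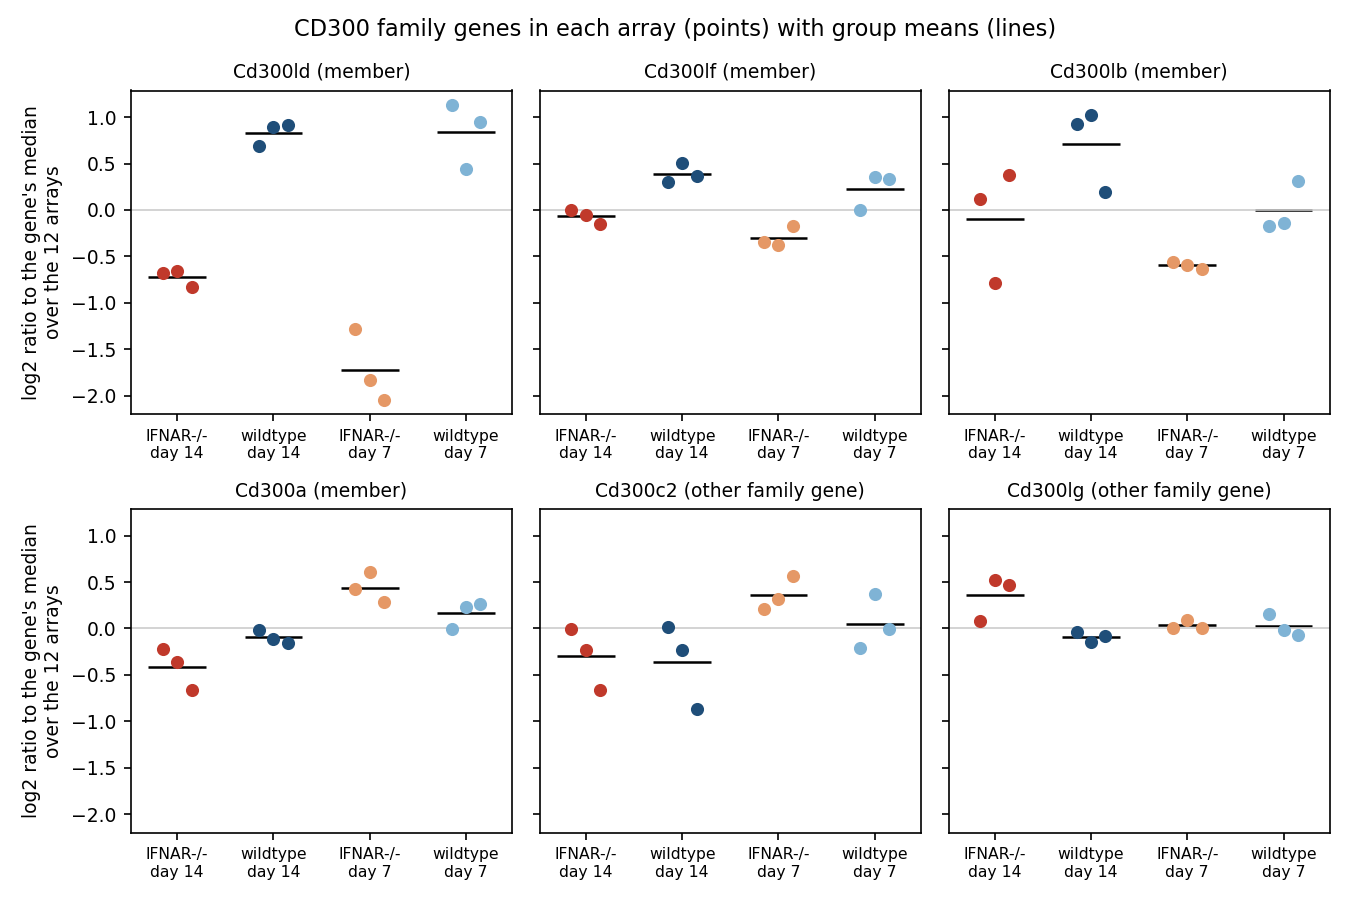
Log2 ratio (vertical axis) of each CD300 gene in each of the 12 mice, with a point for each array, a line at each group mean, and groups from left to right IFNAR-/- day 14, wildtype day 14, IFNAR-/- day 7 and wildtype day 7. The 6 IFNAR-/- arrays of Cd300ld lie below 0 and the 6 wildtype arrays above it, while the IFNAR-/- arrays of Cd300a lie higher at day 7 than at day 14. In wildtype mice the days of Cd300a nearly touch, at -0.001 for the lowest day 7 array and -0.013 for the highest day 14 array, and their difference was not called.

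Cd300lb, an activating receptor that pairs with DAP12, was the most variable member within groups at day 14. It read 0.12, -0.79 and 0.37 in IFNAR-/- mice at day 14, against 0.93, 1.02 and 0.19 in wildtype mice. At day 7 it read -0.57, -0.59 and -0.63 in IFNAR-/- mice, against -0.17, -0.14 and 0.31 in wildtype mice. The genotypes overlap at day 14, where 1 IFNAR-/- array reads above the lowest wildtype array, and do not overlap at day 7.

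The group means of Cd300lb were lower in IFNAR-/- cells by a difference of -0.81 ± 0.288 at day 14 and -0.60 ± 0.288 at day 7, and neither was called. The lowest of the IFNAR-/- day 14 values belongs to mouse 2, an array that stands apart, and without it the day 14 difference was -0.47. Cd300lb also averaged higher at day 14 than at day 7, by 0.50 ± 0.288 in IFNAR-/- mice and by 0.72 ± 0.288 in wildtype mice. Neither was called except under array weights.

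Cd300lf, an inhibitory receptor that binds ceramide and other lipids and is also known as the receptor of murine norovirus, was lower in IFNAR-/- cells on both days by a smaller amount. It read -0.001, -0.05 and -0.15 in IFNAR-/- mice at day 14, against 0.31, 0.50 and 0.37 in wildtype mice. At day 7 it read -0.34, -0.38 and -0.18 in IFNAR-/- mice, against 0.00, 0.36 and 0.33 in wildtype mice. No IFNAR-/- array reaches the lowest wildtype array of its day, although at day 7 wildtype mouse 1 lies nearer to the IFNAR-/- mice than to the other wildtype mice.

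Cd300lf was 1.38-fold lower in IFNAR-/- cells at day 14 (difference -0.46 ± 0.117) and 1.44-fold lower at day 7 (difference -0.53 ± 0.117). At day 14 it was called in 4 of 22 alternative fits, where its difference ranged from -0.54 to -0.41. At day 7 it was called in 7 of 22, with -0.64 to -0.47. Only 2 of the 12 fits that left out 1 array kept the call at day 14, and only 3 kept it at day 7, so the call was not steady. The sign was the same in all 22 fits on both days, though many of them could not change the difference. Cd300lf was higher at day 14 than at day 7 by 0.23 ± 0.117 in IFNAR-/- mice and by 0.16 ± 0.117 in wildtype mice. Its change over time had a similar size in both genotypes, and the genotype difference at day 14 was 0.07 ± 0.165 from that at day 7.

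Cd300a, an inhibitory receptor for phosphatidylserine and phosphatidylethanolamine, followed another course. Its mean over 2 probe sets was -0.22, -0.36 and -0.67 in IFNAR-/- mice at day 14, against -0.01, -0.11 and -0.16 in wildtype mice. At day 7 it was 0.42, 0.60 and 0.29 in IFNAR-/- mice, against -0.001, 0.23 and 0.26 in wildtype mice. The IFNAR-/- arrays thus lie below all wildtype arrays at day 14 and above all of them at day 7, with a gap on each day that is small beside the spread among the IFNAR-/- arrays.

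The genotype difference of Cd300a was -0.32 ± 0.133 at day 14 and 0.28 ± 0.133 at day 7, and neither was called. The largest difference was over time. In IFNAR-/- mice Cd300a was 1.81-fold lower at day 14 than at day 7 (difference -0.86 ± 0.133), which was called in all 22 alternative fits with a range from -0.96 to -0.73. In wildtype mice the same difference was -0.26 ± 0.133 and was not called. The genotype difference at day 14 was 0.60 below that at day 7 (-0.60 ± 0.189), and this was called under array weights only.

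Both probe sets of Cd300a gave the same signs. The genotype difference was -0.27 ± 0.151 for 1435903_at and -0.38 ± 0.183 for 1445292_at at day 14, and 0.31 ± 0.151 and 0.24 ± 0.183 at day 7. From day 7 to day 14 in IFNAR-/- mice they differed by -0.78 ± 0.151 and -0.93 ± 0.183. They were less alike in single arrays. IFNAR-/- day 14 mouse 2 read -0.14 with the first and -0.58 with the second.

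**Figure D2:**
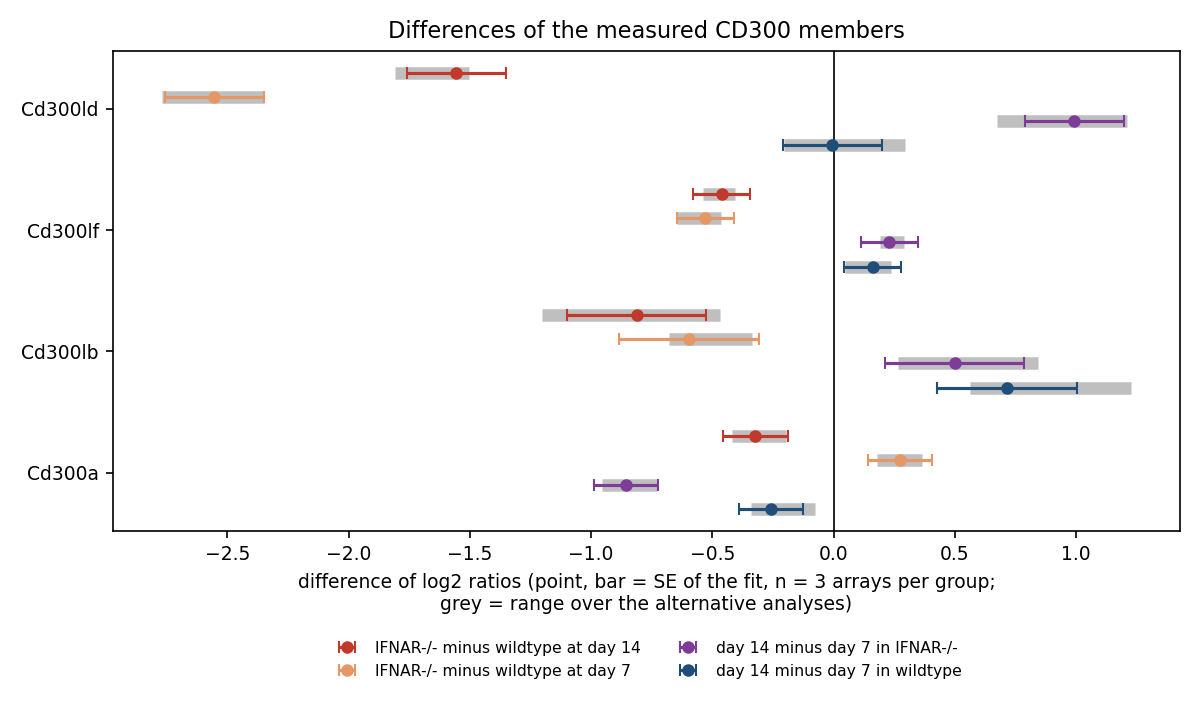
Differences of log2 ratios (horizontal axis) for the 4 measured CD300 members in the genotype and time comparisons, with bars of 1 SE from the limma fit, 3 arrays in each group and grey bands for the range over the alternative fits. Cd300ld stands farthest to the lower side in IFNAR-/- mice, at -1.56 on day 14 and -2.56 on day 7, and Cd300a is the member whose genotype difference has opposite signs on the days.

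Counted over the members, 2 of the 4 measured were called lower in IFNAR-/- cells at day 14 (Cd300ld and Cd300lf), where 3.29% of all genes were called lower and 1.75% higher. The same 2 were called lower at day 7, where 1.35% of all genes were called lower and 1.29% higher. Both were among the 34 genes called lower on both days, 0.187% of all genes. Since the members were chosen by these values, nothing is read from these counts. The members' median difference was -0.64 at day 14 and -0.56 at day 7, against 0.003 and -0.001 over all genes.

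From day 7 to day 14 in IFNAR-/- mice, 1 of the 4 was called higher (Cd300ld) and 1 lower (Cd300a), where 4.08% and 8.25% of all genes were called. In wildtype mice no member was called by limma, where 7.98% of all genes were called. No change of the genotype difference was called either, where 2.48% of all genes were called. At an unadjusted limma p under 0.05 there were 1 member in the first comparison and 2 in the second. The share of all genes at that unadjusted p was not counted, so nothing is read from these members. Arrays of the genotypes did not overlap for 3 of the 4 members at day 14 and for all 4 at day 7, where that held for 23.4% and 24.0% of all genes in either direction. The course of Cd300a, above wildtype at day 7 and below it at day 14 in all arrays, was shared by 1.88% of all genes.

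The members did not vary as one. As a measure of likeness, each gene's log2 ratios were centred on their mean and the root mean square difference over the 12 arrays was taken, so that a smaller value means a more similar course. Among the 4 members it was smallest between Cd300lb and Cd300lf (0.414) and largest between Cd300ld and Cd300a (1.24). Cd300ld was at least 0.851 from every other measured CD300 gene, and its own spread about its mean was the largest of the members (1.11).

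Other CD300 genes with a probe set were Cd300c2, an activating receptor also known as CLM-4, and Cd300lg, an endothelial lipid-binding receptor that lies apart from the cluster on the same chromosome. Cd300c2 had the course most like that of Cd300a (0.264), closer than any pair of members. It read -0.01, -0.24 and -0.66 in IFNAR-/- mice at day 14, against 0.01, -0.23 and -0.87 in wildtype mice, and 0.21, 0.32 and 0.57 in IFNAR-/- mice at day 7, against -0.21, 0.37 and -0.001 in wildtype mice. The genotypes overlapped on both days, with differences of 0.06 ± 0.24 (limma adjusted p = 0.922) and 0.31 ± 0.24 (limma adjusted p = 0.718). Cd300c2 lies next to Cd300ld on the chromosome, and its genotype difference was not called on either day. Cd300lg was 0.45 ± 0.121 above wildtype in IFNAR-/- cells at day 14, short of the threshold (limma adjusted p = 0.0602), and 0.01 ± 0.121 at day 7 (limma adjusted p = 0.993).

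The genes around the cluster were examined for a difference of the same kind. The 10 nearest measured genes on each side and Rab37, whose span holds Cd300lf, gave 21 neighbours. None was called between the genotypes by limma at day 14, with 4 at an unadjusted p under 0.05, and none at day 7, with 2. Their median difference was -0.002 at day 14, with a range from -0.42 to 0.73, and -0.06 at day 7, with a range from -0.51 to 0.40. Rab37 itself differed by 0.18 ± 0.106 at day 14 (limma adjusted p = 0.375) and by -0.06 ± 0.106 at day 7 (limma adjusted p = 0.924). The differences of Cd300ld, Cd300lb and Cd300lf lay below the lowest of these neighbours on both days. For Cd300lf the margin was small, with -0.46 against -0.42 at day 14 and -0.53 against -0.51 at day 7. Cd300a lay within the range of the neighbours on both days (-0.32 and 0.28). The members were chosen by their values and the neighbours by position, so nothing is read from this order. Over time, Gprc5c, an orphan receptor, was 0.56 lower at day 14 than at day 7 in IFNAR-/- mice (-0.56 ± 0.139, limma adjusted p = 0.026), and Tmem104 and Mrpl58 differed in wildtype mice by -1.13 ± 0.199 and 0.39 ± 0.099 (limma adjusted p = 0.00781 and 0.0355). Tmem104 was also the 1 neighbour whose genotype difference changed between the days (1.24 ± 0.282, limma adjusted p = 0.0465), with 0.73 ± 0.199 at day 14 and -0.51 ± 0.199 at day 7, neither of them called (limma adjusted p = 0.0615 and 0.26).

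By the same measure of likeness, the nearest genes of all 18193 to Cd300ld were Pop4, a ribonuclease subunit (0.412), Car9, a carbonic anhydrase (0.46), and Ccr1, a chemokine receptor of myeloid cells (0.545). Nearest to Cd300lb were Myo5a, a myosin that carries vesicles (0.219), Clcn5, an endosomal chloride exchanger (0.259), and Rab3il1 (0.29). Nearest to Cd300lf were 4933440N22Rik (0.098), Nosip (0.112) and Lars2, the mitochondrial leucyl-tRNA synthetase (0.118), and nearest to Cd300a were Pdzd8 (0.133), Hmox2, a heme oxygenase (0.135), and Uqcc3 (0.141). The small values for Cd300lf and Cd300a go with their small spread of 0.287 and 0.342, and those for Cd300ld are large beside other members.

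3 lists give the setting of the receptors: the adaptors, kinases, phosphatases and partner receptors they signal through, the other genes of phosphatidylserine recognition, and the other paired receptors of myeloid cells. The adaptors of the activating members did not follow Cd300ld. Fcer1g, its partner, differed by 0.23 ± 0.126 at day 14 (limma adjusted p = 0.338) and -0.12 ± 0.126 at day 7 (limma adjusted p = 0.841). Tyrobp, the partner of Cd300lb, differed by 0.01 ± 0.103 at day 14 (limma adjusted p = 0.971) and 0.05 ± 0.103 at day 7 (limma adjusted p = 0.951).

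Of 16 measured signalling partners, 3 were called higher in IFNAR-/- than in wildtype cells at day 14 and 0 lower (list median 0.23), and none was called at day 7, where 1 had an unadjusted p under 0.05 by limma (median -0.12). The 3 called higher were Syk, the kinase recruited by both adaptors (1.00 ± 0.179, limma adjusted p = 0.013), Cd14, the lipopolysaccharide co-receptor (1.19 ± 0.244, limma adjusted p = 0.0221), and Plcg2, a phospholipase below Syk (0.40 ± 0.088, limma adjusted p = 0.0285). None of the 3 rose over time in IFNAR-/- mice, where Syk differed by -0.44 ± 0.179, Cd14 by -0.03 ± 0.244 and Plcg2 by -0.07 ± 0.088 between day 14 and day 7 (limma adjusted p = 0.134, 0.948 and 0.606). In wildtype mice 5 of the 16 fell over time and 0 rose. They were Cd14 (-1.21 ± 0.244, limma adjusted p = 0.0137), Syk (-1.10 ± 0.179, limma adjusted p = 0.00541), Plcg2 (-0.40 ± 0.088, limma adjusted p = 0.0197), Ptpn6, the phosphatase SHP-1 that inhibitory CD300 receptors recruit (-0.71 ± 0.117, limma adjusted p = 0.00566), and Inpp5d, the phosphatase SHIP-1, named after its value was seen (-0.51 ± 0.13, limma adjusted p = 0.0366). All 5 calls were lost with the 5′ over 3′ control signal in the fit. The genotype difference of Ptpn6 changed by 0.79 ± 0.165 between the days (limma adjusted p = 0.0344). In IFNAR-/- mice Il4ra, which Cd300lf binds, and Ptpn11, the phosphatase SHP-2, rose from day 7 to day 14 by 0.70 ± 0.191 and 0.33 ± 0.09 (limma adjusted p = 0.0377 and 0.0387). In the 12 fits that each left out 1 array, Syk kept its day 14 call in 12, Cd14 in 10 and Plcg2 in 8, Il4ra and Ptpn11 kept theirs in 6 and 4, and Ptpn6 kept the call on its changed difference in 4.

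Of 18 measured genes of phosphatidylserine recognition besides the CD300 genes, 2 were called higher and 2 lower in IFNAR-/- than in wildtype cells at day 14, and none was called at day 7, where 6 had an unadjusted p under 0.05 by limma. Mfge8, a bridge between phosphatidylserine and integrins, was 3.96-fold lower in IFNAR-/- cells at day 14 (-1.99 ± 0.244, limma adjusted p = 0.00277), and Itgb3, a chain of its integrin receptor, was also lower (-0.99 ± 0.143, limma adjusted p = 0.00718). Axl, a receptor tyrosine kinase for Gas6-coated dying cells, was higher (0.77 ± 0.124, limma adjusted p = 0.00958), as was Elmo1, an engulfment adaptor (0.70 ± 0.166, limma adjusted p = 0.0375), although the Elmo1 call held in only 4 of the 12 fits without 1 array. Of the members, Cd300a was not called in this comparison and Cd300lf was called lower, with the call kept in 4 of 22 alternative fits. Mertk, a relative of Axl, fell over time in IFNAR-/- mice (-1.62 ± 0.204, limma adjusted p = 0.00121), where Cd300a was lower too, and also in wildtype mice (-0.93 ± 0.204, limma adjusted p = 0.0191), where Cd300a was not called. The wildtype call of Mertk held in 8 of the 12 fits without 1 array. It was lost with the 5′ over 3′ control signal in the fit and with the poly-A control signal.

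Of 28 other paired receptors measured, 8 were called higher and 1 lower in IFNAR-/- than in wildtype cells at day 14, and 0 higher and 2 lower at day 7. The 1 lower at day 14, chosen for naming after its value was seen, was Siglech, a receptor of plasmacytoid dendritic cells (-0.62 ± 0.133, limma adjusted p = 0.0261). The 2 lower at day 7 were Milr1, an inhibitory mast cell receptor also called Allergin-1 (-1.57 ± 0.149, limma adjusted p = 0.000506), and Clec5a, which signals through the same DAP12 adaptor as Cd300lb (-1.67 ± 0.25, limma adjusted p = 0.00587). Clec5a read -1.34, -1.69 and -1.29 in IFNAR-/- mice at day 7, against 0.10, 0.69 and -0.10 in wildtype mice, without overlap, and its difference was smaller in size than the -2.56 of Cd300ld. At day 14 Clec5a was higher in IFNAR-/- cells instead, among the 8 called higher, while Cd300ld was still lower. The others of those 8 included Clec4e (2.32 ± 0.411, limma adjusted p = 0.0128), Trem1 (2.07 ± 0.407, limma adjusted p = 0.0196), Treml4 (2.02 ± 0.383, limma adjusted p = 0.0171) and Clec4n (1.40 ± 0.23, limma adjusted p = 0.0102), receptors of fungal, bacterial or damaged-cell ligands. Without 1 array the calls of Trem1 and Treml4 held in 10 of 12 fits each. Over time in IFNAR-/- mice these 4 were not called, with differences from -0.36 (Clec4n) to -0.16 (Clec4e). In wildtype mice Trem1, Treml4 and Clec4n fell over time (-2.58, -2.42 and -1.53), and Clec4e differed by -1.35 ± 0.411, which was not called (limma adjusted p = 0.0718). All calls of the 3 lists at day 14 were lost with the 5′ over 3′ control signal in the fit.

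**Figure D3:**
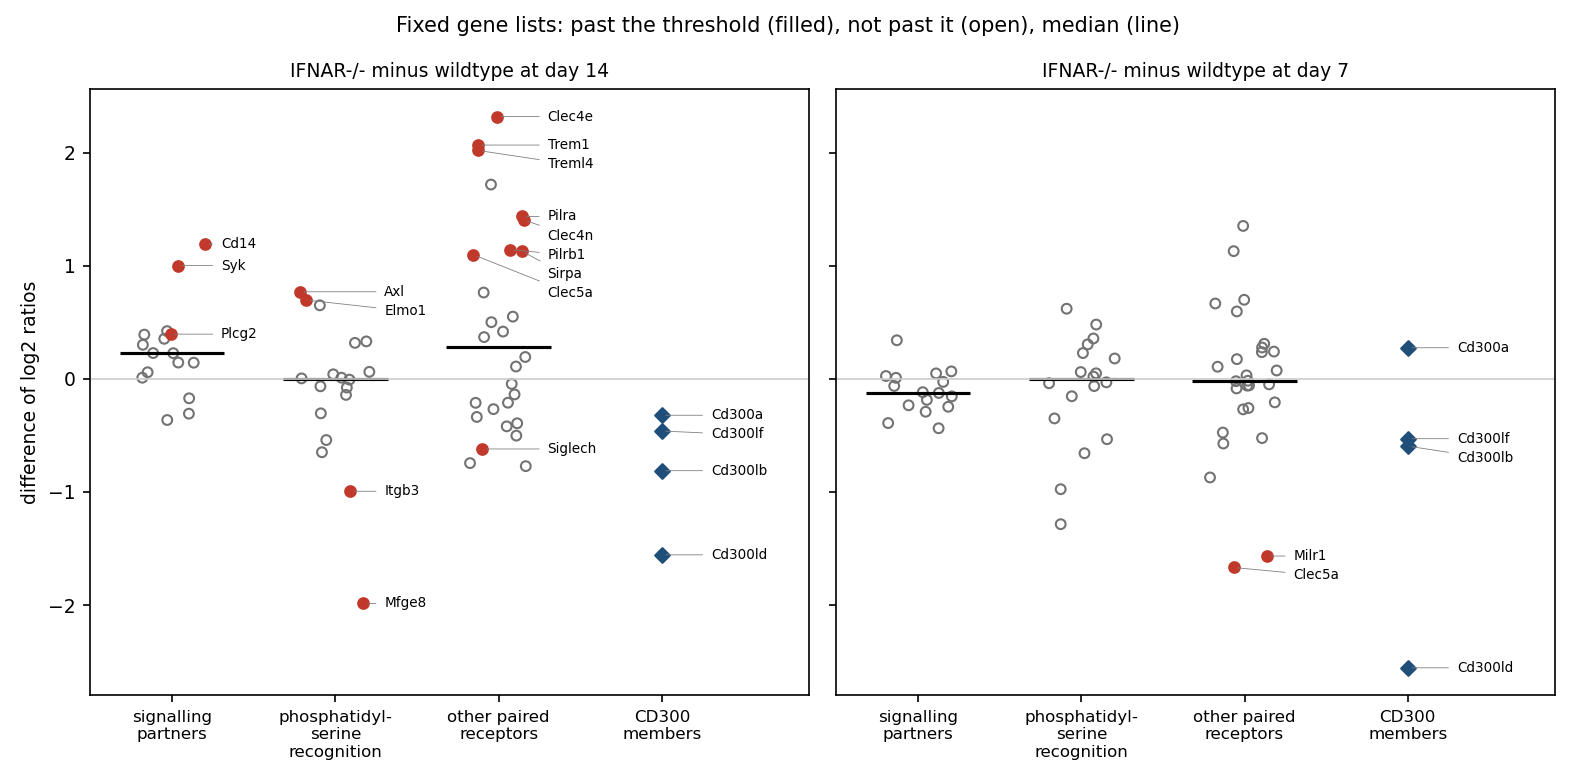
Difference of log2 ratios, IFNAR-/- minus wildtype (vertical axis), at day 14 (left) and day 7 (right) for each gene of the 3 lists, filled where called and open where not, with the list median as a line and the CD300 members as diamonds. At day 14, 8 other paired receptors are called higher and 1 lower, and all 4 CD300 members lie on the lower side, 2 of them called. At day 7 Clec5a and Milr1 are the filled points nearest to Cd300ld.

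Markers of cell types moved with the same comparisons. These lists share genes with the list of paired receptors: Treml4 is also a monocyte marker here, and Siglecf is also an alveolar macrophage marker. Their calls count in each list that holds them. At day 7, 10 of 14 dendritic cell markers were lower in IFNAR-/- cells and none was higher, and the median of the list lay between -0.73 and -0.44 in IFNAR-/- mice and between 0.14 and 0.31 in wildtype mice. At day 14, 2 were higher and 1 was lower, with list medians from 0.06 to 0.37 in IFNAR-/- mice and from -0.11 to 0.001 in wildtype mice. From day 7 to day 14 in IFNAR-/- mice, where Cd300ld was called higher, 8 of the 14 were called higher and 0 lower, with a median difference of 0.85. Cd300ld was called lower in IFNAR-/- cells on both days, and whether dendritic cell content has a part in its differences was not tested. Of 11 monocyte markers, 3 were higher in IFNAR-/- cells at day 14 and 2 were lower at day 7, with medians at day 14 from -0.02 to 0.06 in IFNAR-/- mice and from -0.55 to -0.30 in wildtype mice. Of 12 alveolar macrophage markers, 2 were called higher and 0 lower in IFNAR-/- cells at day 14, and none was called at day 7. The median difference of this list was 0.49 at day 14 and 0.50 at day 7, and the list medians of the genotypes overlapped on both days. Over time, 5 of the 12 were lower at day 14 than at day 7 in IFNAR-/- mice and 7 in wildtype mice. Cd300a was called lower over time in IFNAR-/- mice only.

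Of 9 T cell markers, 5 were higher in IFNAR-/- cells at day 14, and 6 were higher at day 14 than at day 7 in IFNAR-/- mice. At day 7 none was called between the genotypes, and the list median was -0.66 to -0.25 in IFNAR-/- mice and -0.11 to 0.42 in wildtype mice, without overlap. Of 8 NK cell markers, 1 was lower in IFNAR-/- cells at day 7, and the list median was -0.62 to -0.33 in IFNAR-/- mice and 0.125 to 0.69 in wildtype mice, also without overlap. Of 12 neutrophil markers, 1 was higher at day 7 and 0 at day 14. In IFNAR-/- day 7 mouse 3 the medians of the neutrophil, epithelial, endothelial and fibroblast lists were 1.92, 2.20, 2.66 and 2.12, and in that array Cd300ld was at its lowest. Wildtype day 7 mouse 1 had medians of 1.66 and 2.02 in the epithelial and endothelial lists, and Cd300ld was at its highest there. Without IFNAR-/- day 7 mouse 3 and IFNAR-/- day 14 mouse 2 the genotype difference of Cd300ld was -1.59 at day 14 and -2.39 at day 7. The part of these cell types in the CD300 differences was not tested.

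RNA controls also differed, between the genotypes at day 14 and between the days in wildtype mice. The log2 5′ over 3′ signal of the actin and Gapdh control probe sets was 0.06 to 0.16 in IFNAR-/- mice and -0.91 to -0.18 in wildtype mice at day 14, without overlap, and -0.52 to 0.11 in IFNAR-/- mice and 0.08 to 0.18 in wildtype mice at day 7. The poly-A spike-in signal was -1.75 to 0.17 in IFNAR-/- mice and -3.48 to -1.94 in wildtype mice at day 14, and -3.60 to 1.41 in IFNAR-/- mice and 0.83 to 2.15 in wildtype mice at day 7. Neither signal overlapped between the days in wildtype mice. With the 5′ over 3′ signal in the fit, the difference of Cd300lf was -0.54 at day 14 and -0.50 at day 7 and was called on neither day, and that of Cd300lb was -1.20 and -0.44. With the poly-A signal the difference of Cd300ld was -1.70 at day 14 and -2.40 at day 7, that of Cd300lf was -0.43 and -0.56 and was called on neither day, and that of Cd300lb was -1.06 and -0.34.

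**Figure D4:**
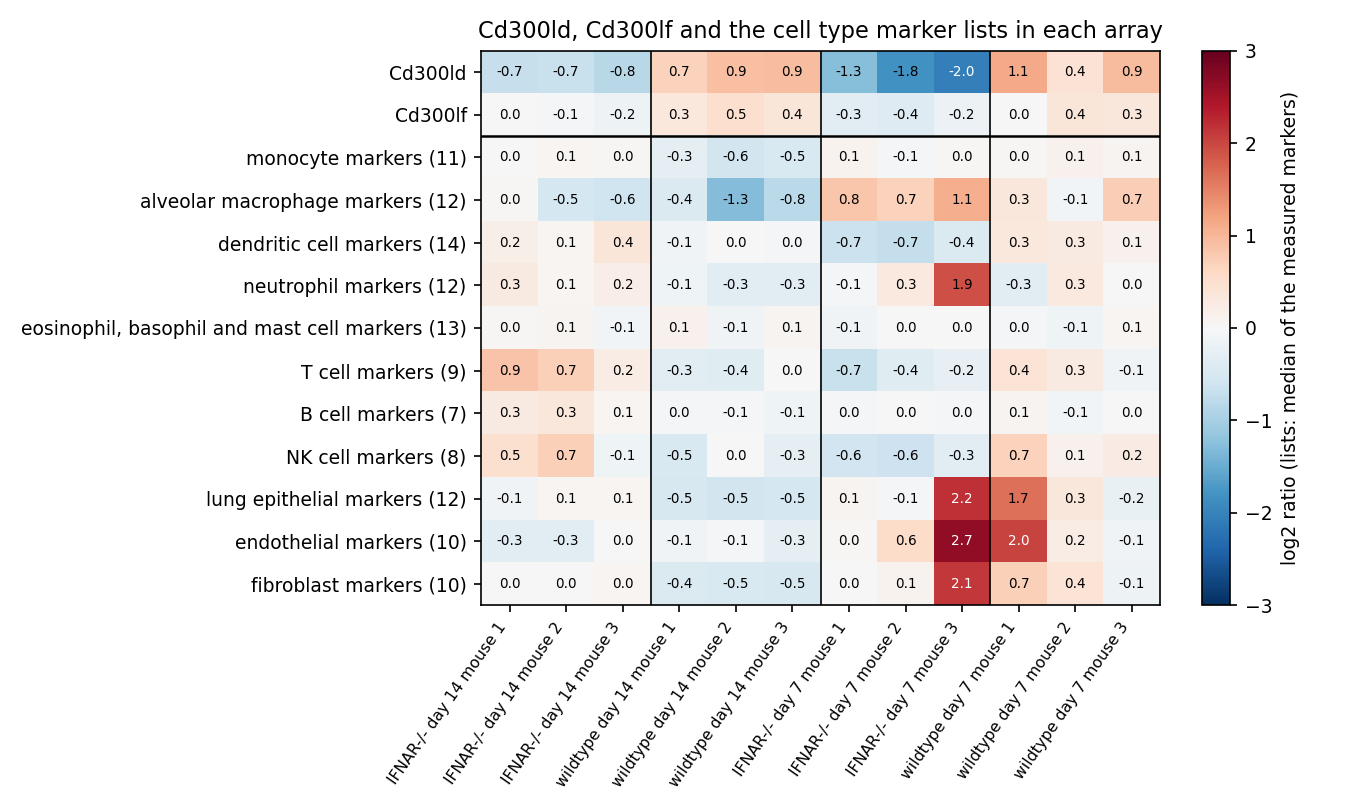
Log2 ratio of Cd300ld and Cd300lf (top rows) and median log2 ratio of each cell type marker list in each array, as numbers and colour, with arrays ordered by group from IFNAR-/- day 14 to wildtype day 7. The dendritic cell list is below 0 in the 3 IFNAR-/- arrays of day 7 and above 0 in the 3 wildtype arrays of that day, and IFNAR-/- day 7 mouse 3 is high in the neutrophil, epithelial, endothelial and fibroblast lists.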

How the data were processed

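RNA of pulmonary CD11c+ cells was hybridised to 12 Affymetrix arrays, 1 per mouse and 3 for each of 4 groups. Per the submitters' processing notes RMA was used, with no version given. The deposited values are linear ratios. From the values, each is the authors' signal over about the median of that probe set across the 12 arrays, which lies within 0.02 of 1 for 99.9956% of the 45101 probe sets. Precision is limited by the 3 arrays of each group.

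Symbols were taken from the platform table and updated by Entrez identifier to the RefSeq table of GRCm38.p6 (34741 of 34945 probe sets with 1 symbol matched). The log2 ratios of a gene's probe sets were averaged where they carried its symbol alone, for 18193 genes, with no filter, no pseudocount and no further normalization. A model with a mean for each group was fitted with limma 3.58.1 in R 4.3.3, with 8 residual degrees of freedom, a prior of 3.21 degrees of freedom and two-sided moderated tests adjusted by Benjamini-Hochberg over all genes. The comparisons were the genotype difference at each day, the time difference in each genotype, and the change of the genotype difference. Those of the same day or genotype share arrays. The fit was also run on simulated data with independent noise and known changes in the IFNAR-/- day 7 group only, and its outcome is not given here.

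The members and the gene lists were chosen with earlier results of these data known. Besides the members, genes were named by a rule: other CD300 genes, Ifnar1, called neighbours, the 3 most alike genes of each member, and up to 4 called genes of lowest p in each list and comparison. The rule also took symbols starting with Clm, which matched Clmn and Clmp, and these are not CD300 genes and were set aside. The expression of Cd300e was not analysed here. Alternatives were another normalization, other variance priors, array weights, the mouse number as a block, fewer arrays, RNA control covariates and other ways to treat the probe sets of a gene.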

Additional observations from a re-analysis of the deposited data

Results flagged for a closer look

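The genotype difference of Cd300a had opposite signs on the days: every IFNAR-/- array lay below every wildtype array at day 14 and above every one at day 7. From day 7 to day 14 the genotype difference changed by -0.596, which was not called in the fit of all genes and was called in 1 of 21 alternative fits, under array weights. No p-value is given, and the difference was not tested independently, because the members were chosen with these values known.

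In the lists, 3 genes had a genotype difference that changed between the days by the limma test of that change. Clec5a, a DAP12-coupled receptor, changed by 2.77 ± 0.354 (limma adjusted p = 0.00646): it was higher in IFNAR-/- cells at day 14 and lower at day 7. Milr1, the inhibitory receptor Allergin-1, changed by 1.07 ± 0.211 (1.065 before rounding, limma adjusted p = 0.028), and the call held in 5 of 12 fits without 1 array. Ptpn6, the phosphatase SHP-1, changed by 0.79 ± 0.165 (limma adjusted p = 0.0344), and the call held in 4 of 12 such fits. The calls of all 3 were lost with the 5′ over 3′ control signal in the fit.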

How the results depend on the processing

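The genotype differences of the 4 members kept their sign in all 22 alternative fits on both days. Many of these fits could not change a difference, because they altered only the estimate of the spread or the arrays of other groups. The count of kept signs is therefore a weak check. The time difference of Cd300ld in wildtype mice, near 0, kept it in 17 of 22, and the change of the genotype difference kept it in 18 of 21 fits for Cd300lb and 19 of 21 for Cd300lf. Counts of calls moved more. As reported, 2 members were called at day 14, 2 at day 7, 2 over time in IFNAR-/- mice, 0 over time in wildtype mice and 0 for the change of the genotype difference. The cause of the changes below was not tested.

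Quantile normalization again gave 1 member called at day 14 and 1 over time in IFNAR-/- mice, signalling partners 1 at day 7 and 1 over time in IFNAR-/- mice, and phosphatidylserine genes 1 for the change. Array weights gave 1 member over time in wildtype mice and 1 for the change, signalling partners 5 at day 14, 2 at day 7, 6 over time in IFNAR-/- mice and 6 for the change, phosphatidylserine genes 4 at day 7 and 3 for the change, and paired receptors 5 at day 7, 9 over time in IFNAR-/- mice and 5 for the change. A trended and robust prior gave 1 member at day 14 and 1 at day 7, phosphatidylserine genes 2 at day 14 and 1 at day 7, signalling partners 3 over time in wildtype mice, and paired receptors 1 for the change.

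With only the arrays compared in the fit, 1 member was called at day 14 and 1 at day 7, signalling partners 0 at day 14 and 1 over time in IFNAR-/- mice, and paired receptors 4 at day 14. Without both arrays that stand apart, 1 member was called at day 14 and 1 over time in IFNAR-/- mice. The same fit gave signalling partners 1 over time in IFNAR-/- mice and 2 for the change, phosphatidylserine genes 3 and 1, and paired receptors 3 and 4. With the 5′ over 3′ signal in the fit, 0 members were called at day 14 and 1 at day 7, and at day 14 each list had 0 calls. That fit gave signalling partners 0 in each time comparison and for the change, phosphatidylserine genes 2 over time in wildtype mice, and paired receptors 2 over time in wildtype mice and 0 for the change. With the poly-A signal, 1 member was called at day 14 and 1 at day 7, signalling partners 1 at day 14, 1 over time in wildtype mice and 0 for the change, phosphatidylserine genes 2 over time in wildtype mice, and paired receptors 5 at day 14, 2 over time in wildtype mice and 1 for the change.

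The probe set with the largest SD gave 1 member at day 14 and 1 at day 7, phosphatidylserine genes 1 at day 7 and 1 for the change, and signalling partners 5 at day 14 and 0 over time in IFNAR-/- mice. Each probe set by itself gave 1 member at day 14 and 1 at day 7, phosphatidylserine genes 1 at day 7 and 1 for the change, and signalling partners 6 at day 14.

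Without 1 array, 1 to 2 members were called at day 14 and 1 to 2 at day 7. Signalling partners had 1 to 4 calls at day 14, 0 to 2 over time in IFNAR-/- mice, 2 to 6 over time in wildtype mice and 0 to 2 for the change. Phosphatidylserine genes had 0 to 1 at day 7, 2 to 8 and 2 to 4 over time, and 0 to 1 for the change. Paired receptors had 3 to 9 at day 14, 2 to 4 at day 7, 3 to 6 and 5 to 9 over time, and 1 to 3 for the change. All genes called numbered 384 to 913 at day 14, 210 to 703 at day 7, 1094 to 2520 over time in IFNAR-/- mice, 716 to 2169 in wildtype mice and 138 to 485 for the change.

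The labels do not say that equal mouse numbers pair the samples. Deviations of same-numbered arrays from their group means correlated between -0.397 and 0.232. No differently numbered arrays were set beside them, so shared handling by number was not tested. With the mouse number as a replicate block, 1 member was called at day 14 and 1 at day 7, in both cases Cd300ld, signalling partners had 0 calls over time in IFNAR-/- mice, and phosphatidylserine genes 1 at day 7 and 1 for the change.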

Other observations

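Over time in wildtype mice, where no CD300 member was called, 7 of the 28 other paired receptors were lower at day 14 than at day 7 and 0 were higher. The 4 with the lowest p were Clec4n, the fungal receptor Dectin-2 (-1.53 ± 0.23, limma adjusted p = 0.00384), Trem1, an amplifier of inflammation (-2.58 ± 0.407, limma adjusted p = 0.00464), Treml4 (-2.42 ± 0.383, limma adjusted p = 0.0047) and Sirpa, the receptor of CD47 (-1.50 ± 0.275, limma adjusted p = 0.0089). The RNA control signals do not overlap between the wildtype days. The calls of Trem1 and Sirpa were lost with the 5′ over 3′ signal in the fit and those of Treml4 and Sirpa with the poly-A signal, while that of Clec4n held in both. In IFNAR-/- mice, 2 of the 28 rose over the same days and 3 fell. Clec5a rose 5.55-fold (2.47 ± 0.25, limma adjusted p = 0.0005) and Milr1 rose by 0.85 ± 0.149 (limma adjusted p = 0.00534), while Siglecf, a receptor of alveolar macrophages and eosinophils, fell (-2.11 ± 0.466, limma adjusted p = 0.0151), as did Siglece (-1.51 ± 0.351, limma adjusted p = 0.019) and Trem3 (-1.38 ± 0.354, limma adjusted p = 0.0296), the last named after its value was seen. Without 1 array the calls held in 9 of 12 fits for Siglecf and 11 for Siglece. In phosphatidylserine recognition, Axl fell (-1.20 ± 0.124, limma adjusted p = 0.000745) and Itgb3 rose (1.30 ± 0.143, limma adjusted p = 0.00109) over time in wildtype mice, and Timd4 rose in IFNAR-/- mice (1.39 ± 0.349, limma adjusted p = 0.0268, with 9 of 12 such fits).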
